A study of Mus musculus with 12 samples.

Results

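Integrins, laminins and nidogens are the receptors and the matrix proteins by which cells hold on to the basement membrane. The group described here holds 37 genes of the 54232 in the count table: 25 integrin chains, 10 laminin chains and both nidogens. They were taken from a fixed list by gene symbol, and a gene was to be dropped under 15 counts over all libraries. None was, and all 37 were among the 18618 genes with enough counts to be tested.

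The libraries came from dorsal wounds of male mice of the C57BLKS/J strain with the genotype Lepr (db/db), which lack a working leptin receptor, become obese and diabetic and close wounds slowly. The labels give an age of 12.5 weeks. Every wound was a full-thickness punch of 6 mm, dressed at once and collected on day 10. The TD group (5 libraries) wore a Tegaderm film dressing alone, the Strain group (4 libraries) a patch that induced about 30% strain, and the No Strain group (3 libraries) a patch that induced none. No group of mice without the Lepr mutation and no unwounded skin is among the samples, so each comparison is between treatments of diabetic wounds. Messenger RNA was sequenced from whole frozen tissue, with 20354677 to 25059371 gene counts per library. In such bulk tissue, fewer cells of a type and less RNA per cell cannot be told apart.

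Integrins are dimers of 1 alpha and 1 beta chain that span the cell membrane, bind matrix or another cell outside and couple to actin or, for the alpha6 beta4 pair, to keratin filaments inside. Laminins are trimers of an alpha, a beta and a gamma chain that polymerise into the first sheet of a basement membrane, and nidogens link that sheet to the collagen IV network. In healing skin keratinocytes crawl over and then rebuild this membrane, new capillaries and muscle fibres carry their own, and leukocytes use a separate set of integrins to leave the blood.

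Across the contrasts with TD the clearest pattern by role was on the ligand side. Of the 10 laminin chains 3 fell in Strain and 5 fell in No Strain, where 6.41% and 8.4% of all tested genes fell, and none rose. Lamb2, the beta2 chain of basement membranes of muscle, nerve and vessels, and Lama2, the alpha2 chain of muscle and nerve, were lower than TD in every library of both patch groups. The integrin chains moved both ways: Itgal, the alpha chain of the lymphocyte integrin LFA-1, was about 3 times as high in the patch groups, and Itga1, a collagen receptor chain, was also higher, while Itgb4, the beta chain of hemidesmosomes, and Itga8 were lower. Between Strain and No Strain no member passed the test.

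Upstream sequence is shown for those genes that passed the test in both comparisons with TD and have an entry in the RefSeq promoter table (GRCm38.p6), because these are the members that moved in the same direction under both patches. There were 7 such genes and 4 had an entry; of all members, 24 had one. Each line gives the bases upstream of the RefSeq start on the gene's own strand, 5′ to 3′. Capitals mark matches to GAGGAA, an ETS factor core with its flank, and to CANNTG, the E-box, each searched on both strands; TTCCTC is GAGGAA read from the other strand.
Itga1, chr13:115101965-115102214, minus strand: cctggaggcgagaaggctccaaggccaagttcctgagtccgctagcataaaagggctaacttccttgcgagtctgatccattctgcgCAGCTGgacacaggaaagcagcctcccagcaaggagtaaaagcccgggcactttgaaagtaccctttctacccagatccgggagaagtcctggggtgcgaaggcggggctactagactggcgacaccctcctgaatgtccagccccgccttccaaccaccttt
Itga8, chr2:12301945-12302194, minus strand: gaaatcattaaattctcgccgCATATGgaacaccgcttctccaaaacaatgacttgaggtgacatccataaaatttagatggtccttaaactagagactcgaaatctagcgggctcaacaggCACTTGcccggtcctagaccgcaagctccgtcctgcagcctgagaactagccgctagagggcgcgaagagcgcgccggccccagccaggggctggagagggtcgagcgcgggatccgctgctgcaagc
Lama2, chr10:27616943-27617192, minus strand: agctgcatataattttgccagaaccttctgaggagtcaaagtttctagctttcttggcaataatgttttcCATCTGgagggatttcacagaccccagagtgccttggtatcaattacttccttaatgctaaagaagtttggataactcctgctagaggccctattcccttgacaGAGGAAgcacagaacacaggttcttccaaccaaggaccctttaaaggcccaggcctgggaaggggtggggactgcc
Lamb2, chr9:108479612-108479735, plus strand: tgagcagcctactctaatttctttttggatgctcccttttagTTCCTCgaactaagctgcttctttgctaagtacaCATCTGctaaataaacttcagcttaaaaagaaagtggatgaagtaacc
The Lamb2 run was ended before the first annotated exon of GENCODE M21 and is 124 bases long. The Lama2 run lies 2816 bases inside the GENCODE gene, so it stands before an internal RefSeq start. GAGGAA was present in the Lama2 and Lamb2 windows and absent from those of Itga1 and Itga8, and 23.3% of 32851 RefSeq windows hold it. The E-box was present in all 4 windows and in 66.2% of all windows. Neither an AP-1 site (TGANTCA, in 6.75% of all windows) nor a GC box (GGGCGG, in 32.7%) was found in the 4. Among the 24 members with a window, 18 held an E-box, 14 held GAGGAA, 9 a GC box and 1 an AP-1 site. A match is a run of letters and says nothing of a factor being bound.

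Levels differed widely among members. Levels are given as CPM, the gene's counts at a common library size after TMM scaling (trimmed mean of M-values), and only where genes are compared with each other as CPM per kilobase of exon. Per kilobase, averaged over all 12 libraries, Itgb1, the beta chain shared by most matrix-binding integrins, stood first with 179 CPM per kb. Nid1 followed with 115, Itgb2 with 88.5, Itgb5 with 71.3 and Lamc1, the gamma chain of most laminins, with 59.3. Lamb1 had 41.5, Itga5 38.3 and Lamb2 27.8 CPM per kb. The lowest were Lama1 with 0.539, Itga8 with 0.893 and Itga10 with 1.01 CPM per kb, so the genes that moved include both abundant and scarce members.

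Against TD, 8 of 37 members (21.6%) passed an adjusted p of 0.05 in Strain, 3 higher and 5 lower, where 12.6% of all tested genes passed, 6.2% higher and 6.41% lower (edgeR quasi-likelihood test, Benjamini-Hochberg adjustment over all genes). In No Strain 11 members (29.7%) passed, 3 higher and 8 lower, against 17.8% of all genes, 9.35% higher and 8.4% lower. The libraries of a member did not overlap between Strain and TD for 9 members, against 14.6% of all genes, and between No Strain and TD for 15, against 26.7%. In the contrast of both patch groups together with TD, 12 members (32.4%) passed, 4 higher and 8 lower, where 24.4% of all genes passed, 12.4% higher and 12.1% lower. These contrasts share the TD libraries and are not independent of each other. At an unadjusted p under 0.05 there were 16 members in Strain, 17 in No Strain and 19 with both patches, against 29.5%, 33.5% and 38% of all genes. The median log2 difference over all 37 members was near 0, at -0.07 in Strain and -0.07 in No Strain.

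**Figure D1:**
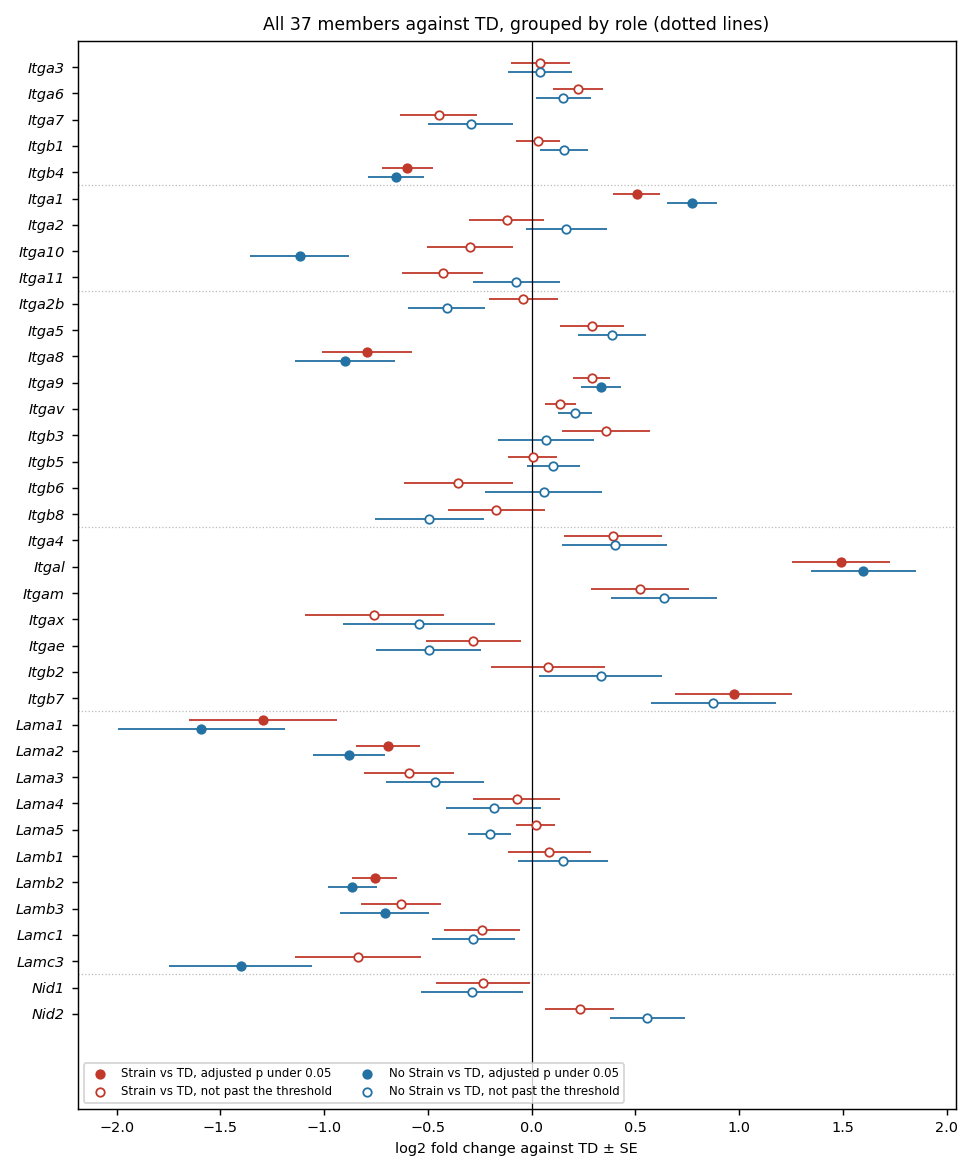
Log2 fold change of each of the 37 members in Strain (red) and No Strain (blue) against TD, with bars of 1 standard error. Members are grouped by role between dotted lines, from laminin-binding chains at the top to nidogens at the bottom, and filled points have an adjusted p under 0.05. Laminin chains with filled points all lie left of 0, and Itgal lies farthest right.

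Among the 5 chains of laminin-binding integrins, 1 fell in each comparison with TD and none rose. That is 20% called in each, against 12.6% of all genes in Strain and 17.8% in No Strain. Itgb4 (ENSMUSG00000020758, chr11:115974709-116008412), which anchors basal keratinocytes to laminin-332 through hemidesmosomes, had 115, 93.8, 121, 105 and 105 CPM in the TD libraries. It had 80.3, 65.9, 85.1 and 53.9 CPM in Strain and 74.1, 64.7 and 67.1 CPM in No Strain, so all 7 patch libraries lay below all TD libraries. The group means were 108 ± 10.5 CPM (SD, n = 5), 71.3 ± 14.2 CPM (SD, n = 4) and 68.6 ± 4.88 CPM (SD, n = 3). Against TD the log2 change was -0.60 (SE 0.125, edgeR adjusted p = 0.014) in Strain and -0.65 (SE 0.137, edgeR adjusted p = 0.0101) in No Strain.

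Its partner did not pass. Itga6, the alpha chain of the hemidesmosome receptor, had 126 ± 6.20 CPM (SD, n = 5) in TD, 147 ± 25.7 CPM (SD, n = 4) in Strain and 140 ± 25.2 CPM (SD, n = 3) in No Strain, with log2 differences of 0.22 and 0.15. Whether Itgb4 and Itga6 responded differently was not tested. Itga3, the receptor chain for laminin-332 and laminin-511, had 36.2 ± 3.49, 37.2 ± 7.32 and 37.3 ± 7.18 CPM in the same order. The summed level of 6 basal keratinocyte markers overlapped between the groups, from 5634 to 7576 CPM in TD, 4824 to 11886 CPM in Strain and 4701 to 9264 CPM in No Strain. For 6 markers of wound-activated keratinocytes the sums were 2640 to 3971, 3650 to 10448 and 3502 to 11033 CPM. Of these 6, 2 were called higher in Strain, 2 in No Strain and 4 with both patches, where 6.2%, 9.35% and 12.4% of all genes were. The part of these cells in the Itgb4 result was not tested.

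Itgb1 (ENSMUSG00000025809, chr8:128685654-128733200), the most abundant chain, had 679, 727, 603, 805 and 715 CPM in TD, 697, 652, 704 and 832 CPM in Strain and 696, 788 and 874 CPM in No Strain. The groups overlapped throughout, with log2 differences of 0.03 (SE 0.105) and 0.16 (SE 0.114). Itga7, the laminin receptor chain of muscle fibres, had 77.4 ± 16.1 CPM (SD, n = 5) in TD, 56.7 ± 14.5 CPM (SD, n = 4) in Strain and 63.1 ± 5.29 CPM (SD, n = 3) in No Strain. Neither Itga7 difference passed, at log2 -0.45 and -0.29 (edgeR adjusted p = 0.134 and 0.34). The Strain difference passed without Strain replicate 3 (edgeR adjusted p = 0.0454) and turned to 0.19 with the muscle list as a covariate (adjusted p = 0.859). The summed level of 15 skeletal muscle markers was 7201 to 17963 CPM in TD, 3434 to 6490 CPM in Strain and 5013 to 10710 CPM in No Strain. All Strain sums thus lay below all TD sums.

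**Figure D2:**
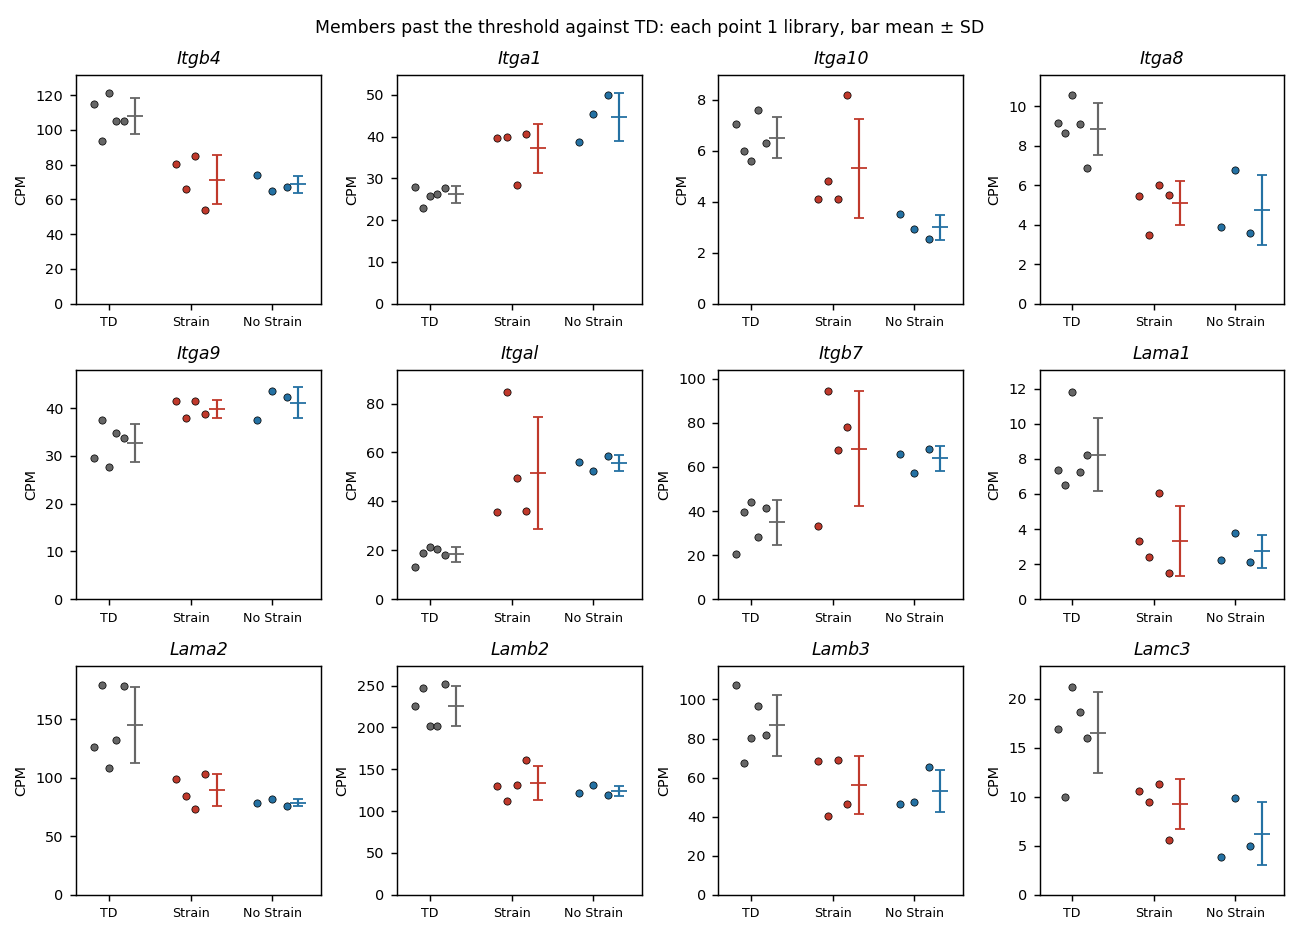
CPM of each member that passed the test in either patch group against TD, with 1 point per library and a bar for the group mean ± SD (TD n = 5, Strain n = 4, No Strain n = 3). For 8 members (Itgal, Lamb2, Lama2, Lama1, Itgb4, Itga1, Itga8 and Itga9) no patch library overlaps the TD libraries, against 11% of all genes.

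Of the 4 collagen-binding chains 1 rose in Strain (25% called, against 12.6% of all genes). In No Strain 1 rose and 1 fell (50%, against 17.8%). Itga1 (ENSMUSG00000042284, chr13:114953096-115101964), which with beta1 binds collagen IV and is found on capillaries, smooth muscle and some T cells, had 28.1, 22.8, 25.7, 26.4 and 27.8 CPM in TD. It had 39.6, 39.9, 28.4 and 40.7 CPM in Strain and 38.7, 45.3 and 50.04 CPM in No Strain. Every patch library was above every TD library, though Strain replicate 3 exceeded the highest TD library only narrowly. It rose by log2 0.51 (SE 0.114, edgeR adjusted p = 0.0184) in Strain and 0.77 (SE 0.123, edgeR adjusted p = 0.0036) in No Strain. Without Strain replicate 2 the Strain call was lost, at an edgeR adjusted p of 0.0621. Endothelial and T cell marker sums also lay above TD in every patch library, and their part in the Itga1 result was not tested.

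Itga10 (ENSMUSG00000090210, chr3:96645584-96664519), a collagen receptor chain best known from cartilage, had 7.03, 6.00, 5.58, 7.59 and 6.31 CPM in TD. It had 4.12, 4.82, 4.09 and 8.20 CPM in Strain and 3.51, 2.92 and 2.56 CPM in No Strain. The No Strain libraries lay below all others and the Strain libraries ran from below to above the TD range. Only the No Strain change passed, at log2 -1.12 (SE 0.238, edgeR adjusted p = 0.0107); in Strain it was -0.30 (SE 0.207, edgeR adjusted p = 0.372). Without Strain replicate 4, the highest library of all for Itga10, the Strain change was -0.58 and passed (edgeR adjusted p = 0.0363). In the annotation 33.5% of the exon bases of Itga10 are also those of Gm42957 on the same strand, which had 15 counts in all libraries together, so the Itga10 values depend on how the authors assigned such reads.

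The other collagen receptor chains did not pass. Itga11, the fibroblast receptor for fibrillar collagen and, per kilobase, the highest of these 4 chains, had 75.2, 95.8, 85.4, 112 and 86.1 CPM in TD, 72.1, 45.1, 76.3 and 76.7 CPM in Strain and 81.2, 114 and 64.3 CPM in No Strain. The Strain values lay in the lower part of the TD range or under it, with a log2 difference of -0.43 (SE 0.194, edgeR adjusted p = 0.165). Itga2, the keratinocyte and platelet collagen receptor chain, had 16.3 ± 1.53 CPM (SD, n = 5), 15.0 ± 1.81 CPM (SD, n = 4) and 18.3 ± 7.24 CPM (SD, n = 3) in TD, Strain and No Strain.

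Of the 9 chains that bind fibronectin, vitronectin, fibrinogen, tenascin or latent TGF-beta, Itga8 fell in both patch groups and Itga9 rose in No Strain. That is 11.1% called in Strain and 22.2% in No Strain, against 12.6% and 17.8% of all genes. Itga8 (ENSMUSG00000026768, chr2:12106632-12301922), whose dimer with beta1 binds nephronectin and fibronectin on smooth muscle and fibroblast-like cells, had 9.13, 8.63, 10.6, 9.08 and 6.88 CPM in TD. It had 5.47, 3.47, 6.00 and 5.51 CPM in Strain and 3.87, 6.78 and 3.58 CPM in No Strain, all below the TD libraries, the highest by a small margin. The fitted difference was log2 -0.79 (SE 0.217, edgeR adjusted p = 0.0358) in Strain and -0.90 (SE 0.241, edgeR adjusted p = 0.0263) in No Strain. The Strain call was lost on leaving out TD replicate 1, 2, 3 or 4 or Strain replicate 1, 2 or 4, at adjusted p from 0.0575 to 0.0986, and the No Strain call without TD replicate 3 or No Strain replicate 1 or 3, at 0.0534 to 0.107.

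Itga9 (ENSMUSG00000039115, chr9:118606690-118901003), the chain that binds tenascin-C and osteopontin, had 29.6, 37.5, 27.6, 34.7 and 33.8 CPM in TD. It had 41.5, 37.8, 41.5 and 38.7 CPM in Strain and 37.5, 43.6 and 42.3 CPM in No Strain. All patch libraries lay above the TD libraries, the lowest of them by a very small margin. Its log2 change was 0.33 (SE 0.0961, edgeR adjusted p = 0.0344) in No Strain and 0.29 (SE 0.0888, edgeR adjusted p = 0.0529) in Strain, which did not pass. The Strain change passed without TD replicate 2 (edgeR adjusted p = 0.042) and in DESeq2. The No Strain call was lost without TD replicate 1, 3 or 4 or No Strain replicate 2 or 3, at adjusted p from 0.0526 to 0.118.

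The other receptors of this class did not pass. Itgb5, the beta chain of a vitronectin receptor and the highest of the class per kilobase, had 236, 255, 222, 261 and 269 CPM in TD, 271, 190, 249 and 288 CPM in Strain and 234, 296 and 271 CPM in No Strain. Its log2 differences were 0.01 (SE 0.118) and 0.10 (SE 0.128). Itga5, the fibronectin receptor chain, had 164 ± 20.8 CPM (SD, n = 5) in TD, 201 ± 28.1 CPM (SD, n = 4) in Strain and 215 ± 57.7 CPM (SD, n = 3) in No Strain, differences of 0.29 and 0.39 that did not pass (edgeR adjusted p = 0.23 and 0.127). Itgav, the alpha chain of the vitronectin receptors, had 112 ± 8.19, 123 ± 5.29 and 129 ± 14.8 CPM in the same order (edgeR adjusted p = 0.24 and 0.0948). Itgb3 and Itga2b, the chains of the platelet fibrinogen receptor, averaged 63.8 and 11.1 CPM in TD, 81.9 and 10.8 CPM in Strain, and 66.9 and 8.33 CPM in No Strain. Itgb6 and Itgb8, beta chains of the receptors that release active TGF-beta, averaged 14.1 and 18.2 CPM in TD, 11.0 and 16.2 CPM in Strain, and 14.6 and 12.9 CPM in No Strain. For these 4 genes the libraries overlapped in both comparisons, and the smallest edgeR adjusted p was 0.143, for Itga2b in No Strain.

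The largest rise of any member was that of a leukocyte integrin chain. Of the 7 leukocyte chains 2 rose in Strain (28.6%, against 12.6% of all genes called) and 1 in No Strain (14.3%, against 17.8%), with a list median of 0.39 and 0.40. Itgal (ENSMUSG00000030830, chr7:127296260-127335138), the alpha chain of LFA-1, which lymphocytes and neutrophils use to bind ICAM molecules on endothelium, had 13.3, 18.9, 21.2, 20.4 and 18.1 CPM in TD. It had 35.8, 84.8, 49.8 and 36.2 CPM in Strain and 55.9, 52.4 and 58.7 CPM in No Strain. The lowest patch library was far above the highest TD library, and Strain replicate 2 stood above the rest. The fitted change was 2.81-fold in Strain (log2 1.49, SE 0.237, edgeR adjusted p = 0.00647) and 3.03-fold in No Strain (log2 1.60, SE 0.252, edgeR adjusted p = 0.00371). These calls held on leaving out any of the 12 libraries.

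Itgb2, the beta chain with which Itgal pairs and which myeloid cells use with other alpha chains, had 113, 278, 292, 251 and 311 CPM in TD, 173, 342, 247 and 292 CPM in Strain and 290, 266 and 385 CPM in No Strain. The groups overlapped widely, with log2 differences of 0.08 (SE 0.275) and 0.33 (SE 0.297). TD replicate 1 was the lowest library of all for Itgb2. As a share of the summed CPM per kilobase of all alpha chains, Itgal took 2.00% ± 0.222 (SD, n = 5) in TD, 5.30% ± 2.08 (SD, n = 4) in Strain and 5.44% ± 0.541 (SD, n = 3) in No Strain.

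Itgb7 (ENSMUSG00000001281, chr15:102215995-102231944), the beta chain of the gut-homing and epithelial lymphocyte integrins, had 20.6, 39.8, 44.2, 28.0 and 41.4 CPM in TD. It had 33.1, 94.3, 67.6 and 78.2 CPM in Strain and 66.1, 57.3 and 68.2 CPM in No Strain. The Strain range overlapped TD through Strain replicate 1, and the No Strain libraries were all above TD. Strain passed with log2 0.97 (SE 0.281, edgeR adjusted p = 0.0442) and No Strain did not with log2 0.88 (SE 0.302, edgeR adjusted p = 0.0663). Among the 12 fits that each left out 1 library, the Strain call held only without Strain replicate 1; the others gave an adjusted p from 0.0543 to 0.147. The No Strain difference passed without that same library (edgeR adjusted p = 0.0234).

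The remaining leukocyte chains did not pass. Itgam, the alpha chain of Mac-1 on neutrophils and macrophages, had 56.6 ± 13.0 CPM (SD, n = 5) in TD, 81.2 ± 23.7 CPM (SD, n = 4) in Strain and 88.0 ± 24.9 CPM (SD, n = 3) in No Strain (edgeR adjusted p = 0.168 and 0.107). Its exons share 68.7% of their bases with Gm49368 on the same strand, a gene that drew 47 counts in all. Itgax, the alpha chain CD11c on dendritic cells and some macrophages, had 87.4 ± 40.1 CPM (SD, n = 5), 51.6 ± 9.27 CPM (SD, n = 4) and 59.9 ± 12.7 CPM (SD, n = 3), with log2 differences of -0.76 and -0.55 (edgeR adjusted p = 0.157 and 0.328). Without TD replicate 1, the lowest TD library for Itgax, both passed as lower, at log2 -0.98 (edgeR adjusted p = 0.0237) and -0.76 (edgeR adjusted p = 0.0494). Itga4, the alpha chain that binds VCAM-1, had 21.3 ± 4.58, 27.9 ± 10.4 and 28.0 ± 0.813 CPM, and Itgae, the alpha chain that pairs with beta7 on epithelial lymphocytes, had 8.25 ± 1.52, 6.78 ± 1.84 and 5.84 ± 1.95 CPM.

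Marker sums of leukocytes are given beside these genes. The summed level of 9 T cell markers ran from 31.4 to 43.4 CPM in TD, from 43.5 to 113 CPM in Strain and from 54.0 to 94.4 CPM in No Strain. For 10 neutrophil markers the ranges were 488 to 1694, 917 to 8744 and 2160 to 5212 CPM, and for 10 macrophage markers 1236 to 2874, 2120 to 2863 and 2033 to 3148 CPM. For 7 dendritic cell markers they were 32.8 to 46.8, 30.7 to 43.7 and 30.5 to 43.3 CPM (two-sided exact permutation p = 0.579 and 0.571). Within TD and within Strain the neutrophil sum was highest in replicate 1, the library of each group where Itgal and Itgb7 were lowest. Within No Strain it was the other way: replicate 2 had the lowest neutrophil sum, 2160 CPM, and the lowest Itgal and Itgb7. The T cell sum was lowest in TD replicate 2, Strain replicate 4 and No Strain replicate 3, in none of which Itgal or Itgb7 was lowest. In Strain replicate 2 the T cell sum, Itgal and Itgb7 were all highest of the group. These are single libraries, with no test. The T cell sums did not overlap with TD (two-sided exact permutation p = 0.00794 in Strain and 0.0179 in No Strain). These are the smallest values each design allows. The neutrophil sums overlapped with TD in Strain and did not in No Strain (exact permutation p = 0.0238 and again 0.0179). The macrophage sums overlapped in both (exact permutation p = 0.524 and 0.393). After adjustment over 60 such tests no list passed, the smallest adjusted value being 0.0756. Of 10 neutrophil genes 7 were called higher in Strain and 6 in No Strain, and of 9 T cell genes 4 in each. Of all genes 6.2% and 9.35% were called higher. Of the T cell list no gene was at 0 in any library, and of the neutrophil list Ly6g was at 0 in some. The part of these cells in the Itgal and Itgb7 results was not tested.

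**Figure D3:**
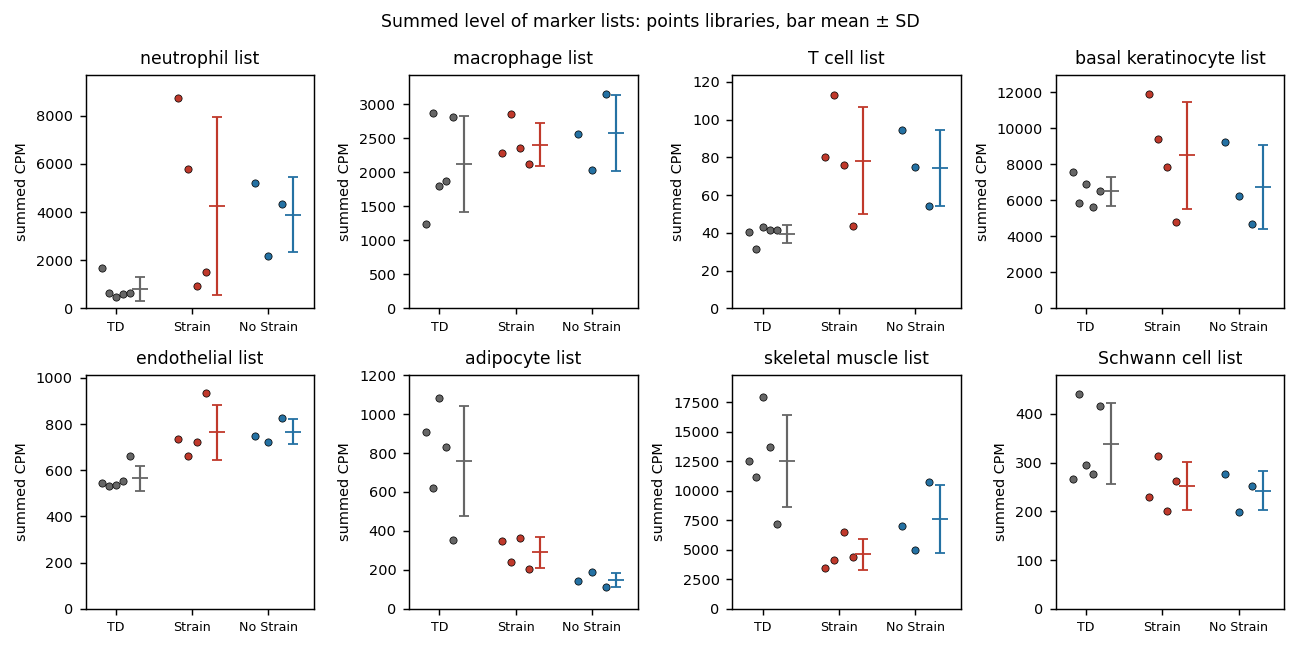
Summed CPM of the marker lists of 8 cell types in each library, with group mean ± SD (TD n = 5, Strain n = 4, No Strain n = 3). T cell and endothelial sums of the patch groups lie above TD, as do the neutrophil sums of No Strain. Adipocyte sums of No Strain and skeletal muscle sums of Strain lie below every TD library. Macrophage and basal keratinocyte sums overlap.

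Laminin chains fell where they changed, and their median log2 difference was -0.61 in Strain and -0.59 in No Strain, beside -0.07 for all members. Lamb2 (ENSMUSG00000052911, chr9:108479736-108490530), the beta chain of neuromuscular, perineurial and vascular laminins, had 226, 248, 201, 201 and 251 CPM in TD. It had 130, 112, 131 and 161 CPM in Strain and 121, 131 and 119 CPM in No Strain, with a wide gap between the patch and TD libraries. The means were 225 ± 24.2 CPM (SD, n = 5), 133 ± 20.4 CPM (SD, n = 4) and 124 ± 6.15 CPM (SD, n = 3). The log2 change was -0.76 (SE 0.107, edgeR adjusted p = 0.00437) in Strain and -0.86 (SE 0.119, edgeR adjusted p = 0.00246) in No Strain, and both calls held without any 1 library.

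Lama2 (ENSMUSG00000019899, chr10:26980036-27619758), whose loss causes muscular dystrophy, had 126, 179, 108, 132 and 178 CPM in TD. It had 98.4, 84.1, 73.3 and 103 CPM in Strain and 78.3, 81.7 and 76.1 CPM in No Strain. All patch libraries were below TD, and the No Strain libraries lay close together. The log2 change was -0.69 (SE 0.156, edgeR adjusted p = 0.0184) in Strain and -0.88 (SE 0.173, edgeR adjusted p = 0.00783) in No Strain, and the Strain call was lost without Strain replicate 2 (adjusted p = 0.0582). Lama2 is known from the membranes of muscle fibres and Schwann cells. The muscle sums are given above (exact permutation p = 0.0159 in Strain and 0.107 in No Strain). For 7 Schwann cell markers the sums were 265 to 441 CPM in TD, 200 to 314 CPM in Strain and 198 to 277 CPM in No Strain (exact permutation p = 0.143 and 0.143). For 7 adipocyte markers they were 354 to 1085, 205 to 365 and 114 to 188 CPM (exact permutation p = 0.0238 and 0.0357). None of these lists passed after adjustment over 60 such tests. The muscle sums of Strain all lay below TD and those of No Strain overlapped TD. A fit with the mean level of the muscle list as a covariate therefore cannot fully separate muscle level from treatment. With that covariate, the No Strain changes of Lama2 and Lamb2 passed. The Lama2 change in No Strain was -1.17 (edgeR adjusted p = 0.00625) and that of Lamb2 -0.996 (edgeR adjusted p = 0.00775), and in Strain they were -1.29 and -1.01 and did not pass (edgeR adjusted p = 0.122 and 0.163). Other members shrank under that covariate in Strain: Lama1 to -0.92, Lamb3 to -0.35, Lama3 to -0.31 and Itgb4 to -0.38, none of them passing.

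Lama1 (ENSMUSG00000032796, chr17:67697259-67822647), the alpha chain of the embryonic laminin-111, was the scarcest member per kilobase. It had 7.36, 6.53, 11.8, 7.23 and 8.24 CPM in TD, 3.33, 2.43, 6.07 and 1.49 CPM in Strain and 2.25, 3.78 and 2.14 CPM in No Strain. Patch libraries lay under the TD range. The fall came to log2 -1.30 (SE 0.356, edgeR adjusted p = 0.0367) in Strain and -1.59 (SE 0.403, edgeR adjusted p = 0.0219) in No Strain. The Strain call was lost on leaving out any TD replicate or Strain replicate 1, 2 or 4 (adjusted p from 0.0542 to 0.112), and the No Strain call without No Strain replicate 1 or 3 (0.0825 and 0.0856).

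The epidermal laminin-332 was covered by Lama3 and Lamb3. Lamb3 (ENSMUSG00000026639, chr1:193207699-193343878), its beta chain, had 107, 67.2, 80.5, 96.6 and 81.9 CPM in TD. It had 68.7, 40.2, 68.9 and 46.5 CPM in Strain and 46.4, 47.5 and 65.3 CPM in No Strain. The No Strain libraries all lay below TD, and in Strain the 2 highest libraries only just overlapped the lowest TD library. The log2 change passed in No Strain, -0.71 (SE 0.212, edgeR adjusted p = 0.0407), and not in Strain, -0.63 (SE 0.193, edgeR adjusted p = 0.0538), where it did without Strain replicate 3 (0.0365) or No Strain replicate 3 (0.0486). The No Strain call was lost without TD replicate 1, 3, 4 or 5 or No Strain replicate 1 or 2 (adjusted p from 0.0562 to 0.139). The Strain change of Lamb3 also passed in DESeq2. Lama3, the alpha chain of the same trimer, had 97.2 ± 21.9 CPM (SD, n = 5), 64.5 ± 16.3 CPM (SD, n = 4) and 70.4 ± 18.2 CPM (SD, n = 3), with log2 differences of -0.59 and -0.47 that did not pass (edgeR adjusted p = 0.0939 and 0.194). All Strain libraries of Lama3 lay below TD, the highest at 77.1 CPM against 78.3 CPM. Its Strain difference passed in DESeq2 (adjusted p = 0.0473).

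Lamc3 (ENSMUSG00000026840, chr2:31887291-31946539), a gamma chain of limited distribution, had 16.9, 9.98, 21.2, 18.7 and 16.0 CPM in TD. It had 10.6, 9.50, 11.3 and 5.56 CPM in Strain and 3.83, 9.91 and 5.02 CPM in No Strain. The No Strain libraries were below all TD libraries, 1 of them by less than 0.1 CPM, and Strain overlapped TD. Lamc3 passed with log2 -1.40 (SE 0.345, edgeR adjusted p = 0.0197) in No Strain and did not with -0.84 (SE 0.304, edgeR adjusted p = 0.0916) in Strain. In DESeq2 the Strain difference passed (adjusted p = 0.0386). The No Strain call was lost without No Strain replicate 1 or 3 (adjusted p = 0.0744 and 0.08).

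The main chains of endothelial and general laminins did not pass. Lamc1 (ENSMUSG00000026478, chr1:153218922-153332786), highest of the laminins per kilobase, had 555, 653, 381, 499 and 621 CPM in TD, 471, 421, 343 and 601 CPM in Strain and 384, 444 and 509 CPM in No Strain. The groups overlapped, with log2 differences of -0.24 (SE 0.183) and -0.28 (SE 0.200). Lama4, the alpha chain of endothelial and fat laminins, had 278 ± 62.9 CPM (SD, n = 5), 264 ± 69.9 CPM (SD, n = 4) and 244 ± 45.0 CPM (SD, n = 3). Lamb1, the beta chain of most laminins, had 393 ± 86.9, 417 ± 109 and 436 ± 53.9 CPM, and Lama5, the alpha chain of mature epithelial and endothelial membranes, 76.6 ± 10.3, 77.6 ± 7.11 and 66.6 ± 3.89 CPM.

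The make-up of the beta chains differed between TD and the patch groups. Of the summed CPM per kilobase of Lamb1, Lamb2 and Lamb3, Lamb2 made up 39.8, 41.2, 46.2, 39.1 and 41.1% in TD, 27.0, 30.6, 34.5 and 30.1% in Strain and 30.7, 27.9 and 26.2% in No Strain. Lamb1 made up 43.7% ± 4.50 (SD, n = 5), 57.5% ± 5.91 (SD, n = 4) and 60.6% ± 2.19 (SD, n = 3). Neither share overlapped between TD and a patch group, although for Lamb1 the highest TD share of 48.5% was just under the lowest Strain share of 48.8%. Among the 5 alpha chains, Lama2 took 18.2% ± 2.48 in TD, 13.5% ± 0.558 in Strain and 12.9% ± 1.80 in No Strain. These shares are of CPM per kilobase of exon, and no test was run on them.

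**Figure D4:**
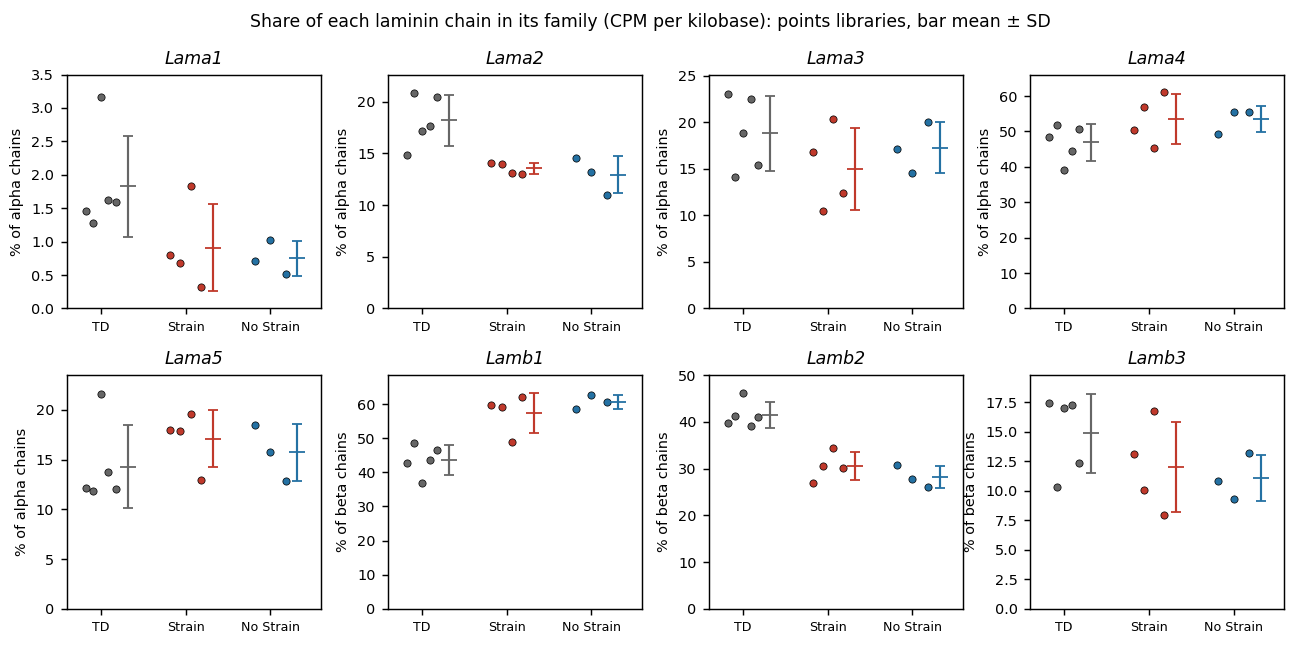
Share of each laminin chain in the summed CPM per kilobase of its own family (alpha or beta chains), in percent, with 1 point per library and the group mean ± SD (TD n = 5, Strain n = 4, No Strain n = 3). Lamb2 shares of the patch groups (27.0 to 34.5% in Strain) lie below every TD library, and Lamb1 shares lie above.

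Neither nidogen passed. Nid1 (ENSMUSG00000005397, chr13:13437551-13512269) had 920, 1045, 586, 721 and 1149 CPM in TD, 688, 604, 598 and 1116 CPM in Strain and 725, 771 and 681 CPM in No Strain. Its libraries overlapped across groups, with log2 differences of -0.23 (SE 0.225) and -0.29 (SE 0.246). Nid2, the nidogen richer in vessels, had 72.9 ± 8.32 CPM (SD, n = 5), 85.5 ± 19.4 CPM (SD, n = 4) and 107 ± 24.0 CPM (SD, n = 3). Its No Strain libraries lay above TD without passing (log2 0.56, SE 0.180, edgeR adjusted p = 0.0538). The difference passed without Strain replicate 2 (edgeR adjusted p = 0.0203), in DESeq2 and in the fit of only the groups compared. Some Nid2 exon bases (8.45%) overlap Rtraf on the opposite strand, a gene with 23909 counts in all against 23684 for Nid2, and whether the counting used strand is not given in the sources used here. The summed level of 10 endothelial markers was 533 to 660 CPM in TD, 663 to 935 CPM in Strain and 723 to 828 CPM in No Strain (exact p = 0.0159 and 0.0179), and its part in the Nid2 level was not tested.

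The comparison of Strain with No Strain, where both groups wore a patch, called none of the 37 members, as it called 0% of all tested genes (0 of 18618; 1045 or 5.61% at an unadjusted p under 0.05). DESeq2 and limma-voom also called 0 members, though DESeq2 called 29 of the 18381 genes it tested (0.158%). Itga10 was the only member with an unadjusted p under 0.05 (edgeR adjusted p = 0.872), with a log2 difference of 0.82 (SE 0.246), higher in Strain, where Strain replicate 4 had the highest value. Itga10 and Lama5 were the 2 members whose libraries did not overlap, against 5.62% of all genes. The differences of all members lay between -0.41 and 0.82, with standard errors from 0.085 to 0.411; the least precise was Lama1.

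Other genes of the same system were described from 3 lists. Of 21 further basement membrane genes, none rose and 5 fell in Strain, where 6.2% of all genes rose and 6.41% fell. In No Strain 2 rose and 8 fell (9.35% and 8.4% of all genes), and with both patches together 2 rose and 11 fell (12.4% and 12.1%). Col4a1 and Col4a2, the widespread collagen IV chains, rose with both patches (log2 0.46, edgeR adjusted p = 0.0242, and 0.47, adjusted p = 0.0137). The restricted chains Col4a5 (-1.08, edgeR adjusted p = 0.00075) and Col4a4 (-1.07, adjusted p = 0.00305) fell, as did Dag1, the dystroglycan laminin receptor (-0.37, edgeR adjusted p = 0.00143). The median of the list was -0.31, beside 0.01 over all genes.

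Of 21 ligands outside the basement membrane, 4 rose and 3 fell in Strain, beside 6.2% and 6.41% of all genes. In No Strain 9 rose and 1 fell (9.35% and 8.4% of all genes), and with both patches 8 rose and 3 fell (12.4% and 12.1%), with a median of 0.66. Vcam1, the endothelial ligand of Itga4 dimers, averaged 34.9 ± 6.16 CPM (SD, n = 5) in TD, 71.9 ± 17.98 CPM (SD, n = 4) in Strain and 78.5 ± 8.27 CPM (SD, n = 3) in No Strain (both patches, log2 1.11, edgeR adjusted p = 0.00134). Icam1, a ligand of the Itgal dimer, went from 42.6 ± 4.68 to 64.8 ± 21.3 and 86.4 ± 7.54 CPM (log2 0.81, edgeR adjusted p = 0.00498), and Madcam1, a ligand of the Itgb7 dimer, rose at a low level (log2 1.99, edgeR adjusted p = 0.00398). Npnt, the nephronectin ligand of the Itga8 dimer, fell from 31.0 to 19.8 and 18.8 CPM on average (log2 -0.68, edgeR adjusted p = 0.00376), and Tgfb3 and Mfge8 fell too (-0.70 and -0.46, adjusted p = 0.00894 and 0.0116).

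Of 23 integrin adaptors and activators 1 rose and 1 fell in Strain (8.7%, against 12.6% of all genes). In No Strain and with both patches 3 rose and 2 fell (21.7%, against 17.8% and 24.4% of all genes). Parvg, the parvin of blood cells, had 6.58 ± 1.26 CPM (SD, n = 5) in TD, 13.1 ± 2.29 CPM (SD, n = 4) in Strain and 16.9 ± 1.46 CPM (SD, n = 3) in No Strain (both patches, log2 1.17, edgeR adjusted p = 0.000649). Lims1 and Fyb rose as well (0.23 and 0.72, edgeR adjusted p = 0.0174 and 0.0257). Vcl, the vinculin of focal adhesions, and Lims2 fell (-0.31 and -0.81, edgeR adjusted p = 0.00706 and 0.00749). The median of the list was 0.07.

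The comparisons with TD carry limits from the samples. The labels do not say whether wounds came from separate mice, so p-values measure the spread between these libraries. The title numbers are 1 to 6 for TD and 7 to 15 for the others, and if they mark an order, order and treatment cannot be told apart. The muscle sums of Strain all lay below those of TD, so a fit with that list cannot fully separate muscle level from treatment. With the muscle list as a covariate, none of the 37 members and 1 of all genes passed in Strain. In No Strain 5 members passed under it (Itga1 and Itgal higher, Itga10, Lama2 and Lamb2 lower), beside 5.27% of all genes. With both patches Lama2 and Lamb2 alone passed under it, beside 0.725% of all genes. The title letter is L in TD replicate 1 alone of its group, and R in Strain replicate 3 and No Strain replicate 1 alone of theirs. The letter thus moves partly with treatment, and a fit with it cannot fully separate them. With the title letter as a covariate the count of members in Strain was 2 (4.29% of all genes). It was 3 without Strain replicate 2 (4.75%), and 5 without TD replicate 3 or 4 (7.03% and 6.88%). In No Strain the count was 7 without No Strain replicate 1 or 3 (8.74% and 7.88%).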

How the data were processed

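RNA from 12 dorsal wounds was sequenced after selection on oligo(dT) beads with the NEBNext Ultra kit, per the labels' protocols. Per the file headers, each library's deposited file holds raw whole-number counts per Ensembl gene. The submitters' processing notes name bcl2fastq 2.17, FastQC, cutadapt, STAR, featureCounts, DESeq2 and GRCm38, without roles, strand setting or annotation release. Genes that share exons with another gene are therefore uncertain.

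Groups came from the group label, and all 12 libraries were used. Symbols, coordinates and exon lengths were taken from GENCODE M21 (GRCm38), which held 54165 of 54232 gene IDs. Genes were kept by filterByExpr of edgeR 4.0.16 (minimum count 10, minimum total 15) in R 4.3.3, scaled by TMM and tested in 1 robust quasi-likelihood fit of all libraries, with Benjamini-Hochberg adjustment over 18618 genes and a threshold of 0.05. CPM uses TMM-scaled totals. Each standard error is the log2 fold change over the square root of its F statistic. Marker sums were compared by two-sided exact permutation tests. Libraries within a group were checked for duplicates: over 19 pairs chi-square per degree of freedom was 9.53 to 75, so each counted as 1 sample. The fit was tested on simulated data.

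Every member is named in its role group. Values per library are given for members past the threshold against TD and for the member of each role group highest per kilobase. Of each of the 3 lists of other genes, the genes past the threshold with both patches that had the smallest p are named, at most 3 in each direction. The members and lists were chosen with earlier results of these data known. Alternatives were other scalings and filters, DESeq2 1.42.0, limma-voom (limma 3.58.1), other sample sets and spread estimates, the title letter or the muscle list as a covariate, and leaving out each library.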

Additional observations from a re-analysis of the deposited data

Results flagged for a closer look

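Within groups of 4 or 5 libraries, 74 sets of values were screened for a library that stands apart, and 7 had one by Dixon's criterion, where chance gives about 3.7. Itgb2 was 113 CPM in TD replicate 1, with the next TD library at 251 CPM. Itga6 was 115 CPM in TD replicate 2, next to 127 CPM, and Itgb6 was 10.6 CPM in TD replicate 5, next to 14.4 CPM. Lama5 was 95.0 CPM in TD replicate 3, above the next at 73.1 CPM. In Strain, Itga1 was 28.4 CPM in replicate 3, with the others at 39.6 CPM or more, and still above every TD library. Itga11 was 45.1 CPM and Itga8 was 3.47 CPM in Strain replicate 2, with the next libraries at 72.1 and 5.47 CPM.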

How the results depend on the processing

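None of the members that passed as reported changed direction under an alternative; Itga7, which passed in Strain without Strain replicate 3 alone, went from -0.45 to 0.19 with the muscle covariate. Of the single-gene results, 3099 kept their side of the threshold, 90 lost it and 30 gained it. The count of members in Strain against TD went from 8 to 2 with the title letter as a covariate (Itgal and Lamb2). Of all genes, 4.29% passed there. The count went to 0 with the level of the muscle list in the model (0.00537% of all genes). Leaving out 1 library gave 3 to 9 members (4.75% to 13.3% of all genes). In No Strain against TD the count went from 11 to 7 and to 5 under the same covariates (11.5% and 5.27% of all genes). Leaving out 1 library there gave 7 to 12 members (7.88% to 18.4%). With both patches against TD the count went from 12 to 2 with the muscle covariate (0.725% of all genes). There, leaving out 1 library gave 12 to 13 members (17.2% to 24.7%). For Strain against No Strain the count of members was 0 under each alternative. The cause of these losses was not tested. Each fit without a library has fewer samples, and both covariates move partly with treatment. DESeq2 called 12, 13, 0 and 14 members in Strain against TD, No Strain against TD, Strain against No Strain and both patches against TD. In that order it called 16.1, 20.1, 0.158 and 23.2% of the genes it tested. The fit without a low-count filter called 6, 10, 0 and 11 members, and 4.28, 6.67, 0 and 9.73% of the genes it tested. No paired analysis was possible because the title numbers are all different and the replicate numbers are only names. Total counts ran from 20354677 to 25059371, and lost calls were not limited to scarce genes: the Itga10 call in No Strain held in 12 of 12 fits without a library, and that of the more abundant Lamb3 in 6.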

Other observations

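In some role groups many members had their extreme value in 1 library; in others, such as the collagen-binding chains in TD, with lowest values in 3 libraries, they did not. In TD, 6 of the 7 leukocyte chains (all but Itgae) were lowest in replicate 1, which also had the lowest macrophage sum of the TD libraries, 1236 CPM, and the highest neutrophil sum, 1694 CPM. In Strain, 5 of the 7 were lowest in replicate 1, where the neutrophil sum was the highest of all libraries, 8744 CPM, and 5 were highest in replicate 2. In No Strain, the same 5 chains (Itga4, Itgal, Itgam, Itgb2 and Itgb7) were lowest in replicate 2, which had the lowest neutrophil sum of its group, 2160 CPM. The T cell sum was lowest in other libraries, TD replicate 2, Strain replicate 4 and No Strain replicate 3.

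Among matrix genes, in TD replicate 3, 6 of the 10 laminin chains (Lama2, Lama3, Lama4, Lamb1, Lamb2 and Lamc1) and both nidogens had their lowest TD value, and Lama5 its highest. That library had the lowest fibroblast sum, 13792 CPM, and the highest muscle and adipocyte sums, 17963 and 1085 CPM, of the TD group. In Strain replicate 3, Lama2, Lama4, Lamb1, Lamc1 and Nid1 were lowest of their group, while 3 other laminin chains were lowest in replicate 2 and 3 in replicate 4. These are descriptions of single libraries, with no test.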
